A study of Mus musculus with 2 samples.

Results

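The collagen genes were examined cell type by cell type in healing mouse skin. Members were taken by name alone, as every gene whose symbol is Col, a number, the letter a and a number, which gave 44 of the 27998 genes counted. Of these, 34 had at least 50 counted transcripts in at least 1 of 6 cell types, and the other 10 stayed under that minimum in each of them.

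A collagen molecule is 3 protein chains wound into a triple helix, and each gene encodes 1 chain. Fibrillar collagens form the banded fibres that give dermis and scar their strength, and fibril-associated collagens sit on the surface of those fibres. Network collagens build the sheets of basement membranes, beaded filaments link cells to the fibres, anchoring fibrils tie the epidermis to the dermis, and transmembrane collagens stay in the cell surface. Fibroblasts are the main source of dermal fibres, whereas pericytes, endothelium, Schwann cells and keratinocytes each lie on a basement membrane.

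Cells came from dorsal skin of male C57BL/6J mice aged 6 to 8 weeks, all wild type, that had healed from a circular wound 1.8 cm across. The group WT_LW received PBS and the group TLR9agonist_LW received ODN2395, a CpG oligonucleotide that activates the DNA sensor TLR9, at 4 μg per treatment on days 0, 3 and 6. A punch 5 mm across was taken at the wound centre 2 days after the scab detached, the epidermis and dermis were separated with enzymes, the dermis was digested further with collagenase and trypsin, and the cells of both were recombined. The cells of several mice were pooled into 1 library per group (6 per group in the results text of the study, 5 samples in its methods, with a control oligonucleotide in place of PBS in 1 legend), so nothing can be tested between the groups. Every interval below is a 95% interval that covers counting error only, and differences between mice or preparations cannot be told apart from the treatment.

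Transcripts were counted as unique molecular identifiers (UMIs), short tags that mark each captured RNA molecule. WT_LW held 12800 cells with 99374045 UMIs and TLR9agonist_LW 13751 cells with 132339022 UMIs, and 47 cell barcodes occurred in both. After filtering, 10276 and 11793 cells were used. A cell was assigned to a type when it carried UMIs of several of that type's marker genes, for example 4 of 6 for fibroblasts (Pdgfra, Dcn, Lum, Fbln1, Dpt and Twist2), and no collagen served as a marker. The numbers of markers required were set after the counts had been seen. Fibroblasts were split into upper fibroblasts (Crabp1, Prss35, Grem1, Prdm1, Tbx3, Rspo4) and deep fibroblasts (Clec3b, Angptl1, Cilp, Pi16, Scara5, Gpx3). These working names rest on those genes alone, and no position in the skin was measured.

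The gates held 195 upper fibroblasts in WT_LW and 817 in TLR9agonist_LW, 186 and 325 deep fibroblasts, and 312 and 946 fibroblasts that fitted neither list. They also held 531 and 343 pericytes, 690 and 420 Schwann cells, 565 and 339 endothelial cells, and 404 and 1134 keratinocytes. UMIs were summed per type and library and are given as CPM, the UMIs of a gene in every 1000000 UMIs of that type and library, which is the level used throughout. The summed depth of a type ranged from 2902581 UMIs in pericytes of TLR9agonist_LW to 25085874 in keratinocytes of the same library. Because only the 3′ end of each transcript is read and no length enters, levels are compared for 1 gene across types and libraries. Shares of collagen UMIs and orders of abundance among members describe UMIs captured, not amounts of RNA per gene.

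RNA from broken cells enters every droplet, and collagen transcripts are abundant enough for this to matter. T cells and macrophages, which should make little fibrillar collagen, gave its level. In T cells Col1a1 reached 462 CPM in WT_LW and 982 in TLR9agonist_LW, whereas Col4a1 stood at 46.4 and 17.7. The background of Col1a1, Col1a2 and Col3a1 was thus higher in TLR9agonist_LW, and that of Col4a1, Col18a1 and Col5a3 was lower. A member was read as above background in a type when its mean level over both libraries was at least 2 times that of T cells and of macrophages, a rule chosen after the data had been seen.

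Fibroblasts had the largest share of collagen UMIs among the types given here. In upper fibroblasts the median cell had 9.99% of its UMIs from collagen genes in WT_LW and 9.02% in TLR9agonist_LW. Deep fibroblasts had 8.15% and 9.32%, and fibroblasts of neither list 8.59% and 9.43%. Pericytes followed at 2.55% and 1.59%, Schwann cells at 1.86% and 1.47%, and endothelium at 0.769% and 0.669%. Keratinocytes, at 0.159% and 0.148%, lay between macrophages (0.136%) and T cells (0.216%) in WT_LW and below both (0.229% and 0.305%) in TLR9agonist_LW. The order of the 3 non-epidermal types below the fibroblasts was the same in both libraries, although the cells between the 25th and 75th percentile overlapped between pericytes and Schwann cells.

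**Figure D1:**
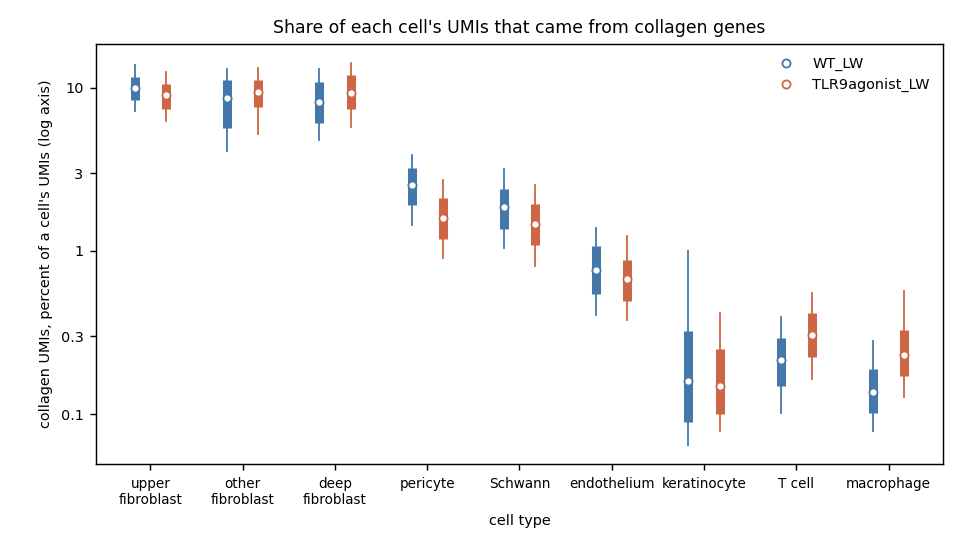
Percent of each cell's UMIs that came from the 44 collagen genes (y axis, logarithmic) for 7 cell types and for T cells and macrophages as background (x axis), with WT_LW in blue and TLR9agonist_LW in orange. Points are medians over cells, thick bars span the 25th to 75th percentile of cells and thin lines the 10th to 90th percentile, and the keratinocyte medians of 0.159% and 0.148% are no higher than those of T cells of the same library.

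The composition of the collagen RNA differed between types. Fibrillar collagens gave 89.2% (WT_LW) and 92.5% (TLR9agonist_LW) of collagen UMIs in upper fibroblasts, and 89.5% and 92.0% in deep fibroblasts. In pericytes they gave 44.1% and 43.9%, beside 28.6% and 28.0% from basement membrane network collagens and 18.7% and 19.4% from beaded filament collagens. Schwann cells had 70.1% and 65.7% fibrillar and 10.4% and 12.6% network collagen. In endothelium the network collagens led with 58.7% and 49.6%. The multiplexins, which sit in basement membranes and carry an endostatin-like end, gave 21.2% and 15.2% there, and fibrillar collagens, whose main chains were at background in these cells, 16.4% and 31.7%.

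Each of the 34 measured members was then placed in the type where its level was highest. In both libraries 7 members were highest in upper fibroblasts (Col3a1, Col5a1, Col5a2, Col12a1, Col7a1, Col24a1, Col25a1), 5 in deep fibroblasts (Col6a3, Col14a1, Col8a1, Col8a2, Col6a6) and 5 in pericytes (Col4a1, Col4a2, Col18a1, Col6a5, Col6a4). Another 7 were highest in Schwann cells (Col28a1, Col20a1, Col9a3, Col4a4, Col11a1, Col27a1, Col16a1), 2 in endothelium (Col15a1, Col13a1) and 2 in keratinocytes (Col17a1, Col4a5). The remaining 6 (Col1a1, Col1a2, Col6a1, Col6a2, Col5a3, Col23a1) had a different highest type in each library. No share of all genes by highest type is given, so these numbers describe the members alone. The interval of the ratio between the highest and the next type included no difference for Col5a3 in WT_LW and for Col4a5, Col6a1, Col6a2 and Col23a1 in TLR9agonist_LW.

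**Figure D2:**
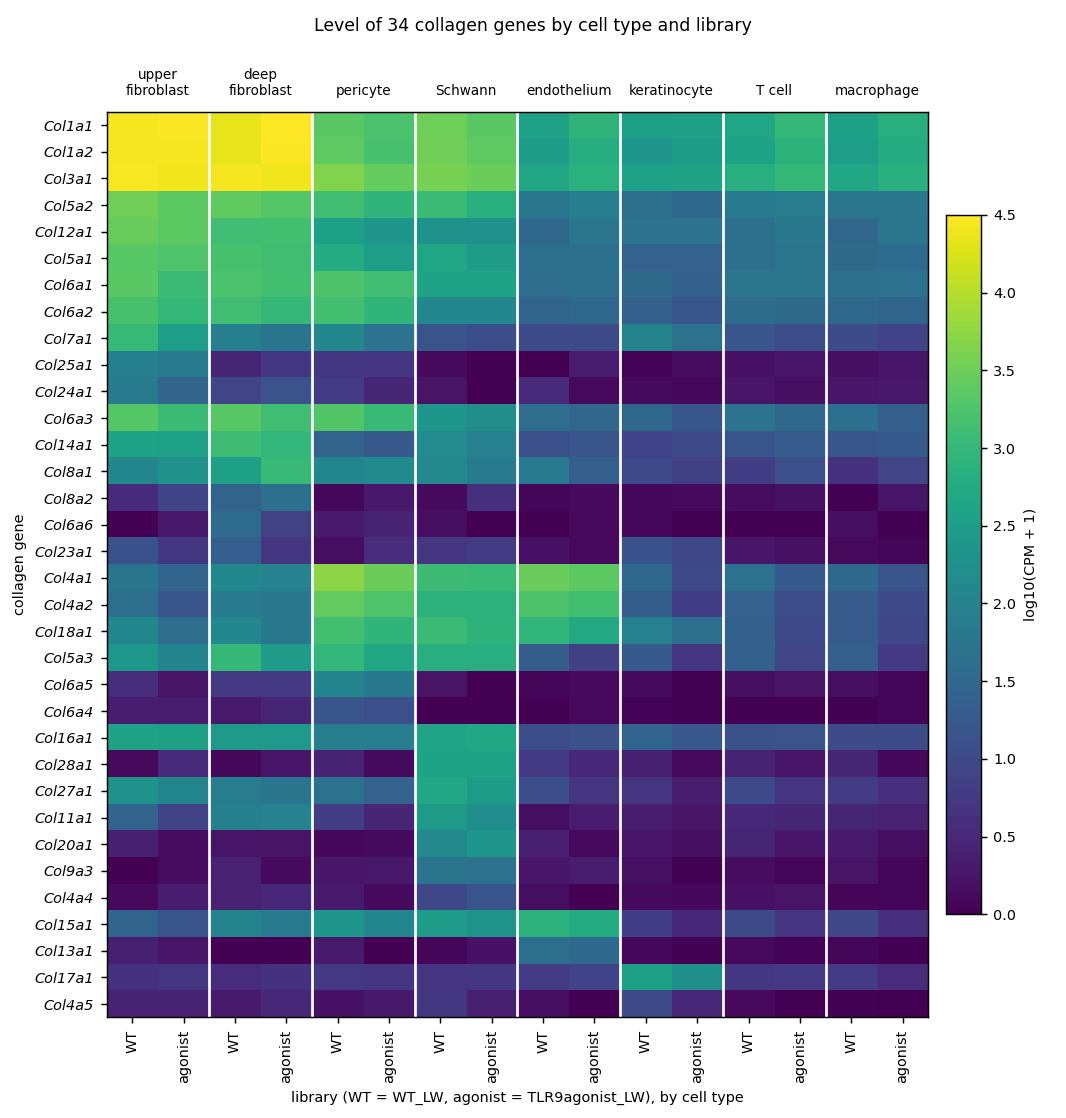
Level of 34 collagen genes (rows) as log10 of CPM plus 1 (colour) in 6 cell types and in T cells and macrophages, which give the background, with WT_LW left and TLR9agonist_LW right within each type. Rows are ordered by the type with the highest mean level, and Col28a1, Col20a1 and Col9a3 stand out in Schwann cells as Col17a1 does in keratinocytes.

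Type I and type III collagen, the main fibres of dermis, gave the most UMIs among the members in fibroblasts. Col1a1, the major chain of type I collagen, stood at 27919 CPM in upper fibroblasts from WT_LW and 30015 in their counterparts from TLR9agonist_LW. In deep fibroblasts it stood at 21435 and 31819. Col1a2, its partner chain, followed it with 27032 and 27529 in upper and 21895 and 29534 in deep fibroblasts. Col3a1, the chain of type III collagen that is prominent in early repair, was at 29077 and 25389 in upper and 27375 and 25057 in deep fibroblasts. Col1a1 was therefore 1.48-fold higher in deep fibroblasts of TLR9agonist_LW than of WT_LW, while Col3a1 was 1.09-fold lower there, or higher by a log2 ratio of 0.2 relative to the median gene of these cells.

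The balance between type I and type III transcripts differed accordingly. In deep fibroblasts there were 0.783 Col1a1 UMIs for each Col3a1 UMI in WT_LW (interval 0.776 to 0.79) and 1.27 in TLR9agonist_LW (1.26 to 1.28). Upper fibroblasts had 0.96 (0.952 to 0.969) and 1.18 (1.18 to 1.19), and fibroblasts of neither list 0.875 and 1.27. The ratio was thus higher in TLR9agonist_LW in each of the 3 fibroblast groups. Pericytes had 0.496 and 0.605, but their Col1a1 level in TLR9agonist_LW was under 2 times that of T cells, so no direction is given for them. The ratio was lower in Schwann cells (0.847 and 0.726). T cells, which carry the background, had 0.71 and 0.975, so the background differed in the same direction as the fibroblasts, and its part in the other types was not tested.

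Pericytes and Schwann cells carried type I and III transcripts above background at a much lower level than fibroblasts. Col3a1 stood at 4437 and 2780 CPM in pericytes and at 3753 and 3106 in Schwann cells, against 651 and 1007 in T cells. Col1a1 stood at 2201 and 1681 in pericytes and 3179 and 2256 in Schwann cells, and Col1a2 at 2459 and 1559 in pericytes and 3402 and 2375 in Schwann cells. In TLR9agonist_LW the pericyte levels of both genes were under 2 times their T cell levels of 982 and 810, so there they were above background only by the mean of both libraries. In endothelium and keratinocytes Col1a1, Col1a2 and Col3a1 were at background: endothelial Col1a1 was at 380 and 831 and keratinocyte Col1a1 at 343 and 356.

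The minor fibrillar chains showed more selective patterns. Col5a1 and Col5a2, chains of the type V collagen that sets the width of type I fibres, were highest in upper fibroblasts, with 2148 and 1799 CPM for Col5a1 and 3308 and 2325 for Col5a2. The third type V chain, Col5a3, did not follow them. It was at 998 in deep fibroblasts of WT_LW, 969 in pericytes and 694 in Schwann cells, but at 253 in upper fibroblasts. In TLR9agonist_LW it was at 296 in deep fibroblasts, 504 in pericytes, 658 in Schwann cells and 108 in upper fibroblasts, so it was 1.05-fold lower in Schwann cells, 1.92-fold lower in pericytes, 2.34-fold lower in upper fibroblasts and 3.37-fold lower in deep fibroblasts.

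Col11a1, a chain of the type XI collagen known from cartilage, was highest in Schwann cells, at 287 and 157 CPM. Deep fibroblasts had 84.9 and 99.2 and upper fibroblasts 26.6 and 6.41. Col27a1, a fibrillar collagen with short interruptions in its helix, was also highest in Schwann cells, at 489 and 310, with 204 and 114 in upper fibroblasts. Col24a1, another minor fibrillar chain, was highest of the 6 types in upper fibroblasts, at 71.4 and 28.8, where deep fibroblasts had 7.57 and 13.4. Fibroblasts of neither list carried it too, with 192 and 366 UMIs, at larger summed depths, against 247 and 288 in upper fibroblasts.

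Among the fibril-associated collagens, the 2 abundant ones of dermis separated the fibroblast types. Col12a1, which is associated with fibres under tension, was at 2818 and 2311 CPM in upper and at 1307 and 1397 in deep fibroblasts. Col14a1, which limits the growth of fibre diameter, had the opposite order, with 406 and 380 in upper and 1285 and 955 in deep fibroblasts. Col16a1 was shared by Schwann cells (428 and 482), upper fibroblasts (383 and 360) and deep fibroblasts (255 and 264). Its levels in these 3 types differed between the libraries by 1.04-fold to 1.13-fold, in either direction.

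Several collagens were nearly confined to Schwann cells among the 6 types. Col28a1, a collagen described in peripheral nerve, stood at 413 CPM in WT_LW (interval 396 to 431) and 409 in TLR9agonist_LW (387 to 433). The next of the 6 types had 4.9 (endothelium) and 2.4 (upper fibroblasts). Col20a1 stood at 131 and 232 in Schwann cells, with at most 1.45 in any other of the 6 types. Col9a3, a chain of type IX collagen, stood at 53.4 and 49.6, with at most 1.62 elsewhere. Col4a4, a network chain, was low, at 8.32 and 13.8, and still the highest in Schwann cells. Neither Col28a1 nor Col9a3 differed between the libraries beyond counting error, with log2 ratios of TLR9agonist_LW over WT_LW of -0.01 (-0.12 to 0.09) and -0.11 (-0.4 to 0.19). Col20a1 was 1.77-fold higher in TLR9agonist_LW (log2 ratio 0.83, 0.67 to 0.98).

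After each cell was thinned to 3000 UMIs, with shallower cells left out, a Col28a1 UMI was held by 67.7% (WT_LW) and 60.2% (TLR9agonist_LW) of Schwann cells. In T cells the shares were 0.4% and 0.439%. Col20a1 was found in 24.9% and 41.1% of thinned Schwann cells and in 0.889% and 0.314% of thinned T cells. Thinning left out 84 Schwann cells of WT_LW and 23 of TLR9agonist_LW, and 254 and 105 T cells. Without thinning, 83.5% and 82.6% of Schwann cells held a Col28a1 UMI and 38.0% and 55.5% a Col20a1 UMI, at median depths of 7226.5 and 6455.5 UMIs, against 4510 and 4923 in T cells.

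Type VI collagen, the beaded filament that surrounds cells, was shared by fibroblasts and pericytes. Col6a3 stood at 2143 and 1297 CPM in deep fibroblasts, 2074 and 1144 in upper fibroblasts and 1871 and 1116 in pericytes. Col6a1 stood at 2210 and 1186 in upper fibroblasts, 1701 and 1361 in deep fibroblasts and 1730 and 1334 in pericytes. Col6a2 ranged from 1293 to 1529 in these types in WT_LW and from 889 to 1003 in TLR9agonist_LW. Each of these 9 pairs of values was lower in TLR9agonist_LW, by 1.25-fold to 1.86-fold. Set against the median gene of the type, Col6a1 in deep fibroblasts (0.0) and pericytes (0.03) and Col6a2 in deep fibroblasts (-0.04) were about level. The other pairs were still lower on that scale, with log2 ratios from -0.69 to -0.22. In Schwann cells Col6a1 was at 402 and 389 and Col6a2 at 123 and 120.

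The long alternative chains of type VI collagen each had the same highest type in both libraries. Col6a5 stood at 108 and 66.1 CPM in pericytes, and at 4.87 and 4.78 in deep fibroblasts, the next type. Col6a4 had the same pattern at a lower level, 14.5 and 11.4 in pericytes and at most 1.95 elsewhere. Col6a6 was highest in deep fibroblasts, at 36.5 (30.6 to 43.2) in WT_LW and 6.55 (4.61 to 9.02) in TLR9agonist_LW. It was not confined to them: fibroblasts of neither list held 50 and 41 Col6a6 UMIs, at larger summed depths, against 135 and 37 in deep fibroblasts. Col6a4, Col6a5 and Col6a6 are neighbours in RefSeq's gene order on GRCm38.p6, with Col6a5 in the middle. The 3 neighbours thus fell into 2 groups by the type with the highest level, pericytes for the first 2 and deep fibroblasts for Col6a6.

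Type IV collagen forms the network of basement membranes, and its common molecule holds 2 Col4a1 chains and 1 Col4a2 chain. Pericytes had the highest level, 5150 CPM of Col4a1 in WT_LW and 3091 in TLR9agonist_LW. Endothelium had 2919 and 2330, and Schwann cells 1209 and 1095. Col4a2 followed in the same order, with 2641 and 1833 in pericytes, 1760 and 1384 in endothelium and 780 and 780 in Schwann cells. Deep fibroblasts, at 124 and 97.5 of Col4a1, and upper fibroblasts, at 55.5 and 28.4, were far lower, and upper fibroblasts were not above background for either chain.

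The 2 genes lie head to head and are read in opposite directions from neighbouring starts. Their promoter windows, 250 bases before to 50 after the start that RefSeq gives in build GRCm38.p6, are shown because they overlap. The build named in the submitters' notes is mm9, so these positions belong to the reference table only. Col4a1 is on the minus strand at chr8:11312777-11313076 and Col4a2 on the plus strand at chr8:11312555-11312854. The starts are 21 bases apart and the windows share 78 bases. Capitals mark CCAAT and GGGCGG on either strand (antisense ATTGG and CCGCCC).
Col4a1: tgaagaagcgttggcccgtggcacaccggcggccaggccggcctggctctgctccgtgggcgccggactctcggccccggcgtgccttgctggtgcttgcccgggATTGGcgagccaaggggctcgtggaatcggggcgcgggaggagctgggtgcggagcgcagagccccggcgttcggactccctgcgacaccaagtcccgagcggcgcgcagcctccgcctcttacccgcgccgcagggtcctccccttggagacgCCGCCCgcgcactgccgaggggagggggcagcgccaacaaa
Col4a2: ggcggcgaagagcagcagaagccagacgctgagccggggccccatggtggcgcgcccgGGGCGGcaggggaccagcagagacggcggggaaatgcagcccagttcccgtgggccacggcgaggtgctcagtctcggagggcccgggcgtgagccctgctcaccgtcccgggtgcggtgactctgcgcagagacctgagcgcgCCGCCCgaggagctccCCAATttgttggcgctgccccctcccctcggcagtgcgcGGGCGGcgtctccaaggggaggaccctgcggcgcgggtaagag

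The Col4a1 window holds an antisense CCAAT 145 bases before its start. The Col4a2 window holds CCAAT 32 bases before its start and GGGCGG at 3 places. The GGGCGG 7 bases after the start of Col4a2 and the antisense one 9 bases after that of Col4a1 are the same bases, chr8:11312812-11312817. TATAAA was found in neither window on either strand. Of all 32851 promoter windows of this length in the table, 37.4% hold CCAAT, 35.7% hold GGGCGG and 13.6% hold TATAAA on either strand, so the matches describe these windows and mark no site. A window was found for 35 of the 44 members.

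The ratio of Col4a1 to Col4a2 UMIs stayed within 1.4 and 1.95 in the 3 types that express them well. It was 1.95 (1.91 to 1.99) in pericytes of WT_LW and 1.69 (1.63 to 1.74) in those of TLR9agonist_LW. Endothelium had 1.66 and 1.68, and Schwann cells 1.55 (1.49 to 1.61) and 1.4 (1.33 to 1.48). The pericyte and Schwann ratios differed from each other, and between libraries within each type, beyond counting error. The Col1a1 to Col1a2 ratio, from 2 genes that are not neighbours, ranged from 0.895 to 1.09 across upper and deep fibroblasts, pericytes and Schwann cells. The Col6a1 to Col6a2 ratio, from 2 neighbouring genes, was 3.28 (3.01 to 3.59) and 3.25 (2.89 to 3.67) in Schwann cells against 1.18 to 1.5 in upper and deep fibroblasts and pericytes.

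**Figure D3:**
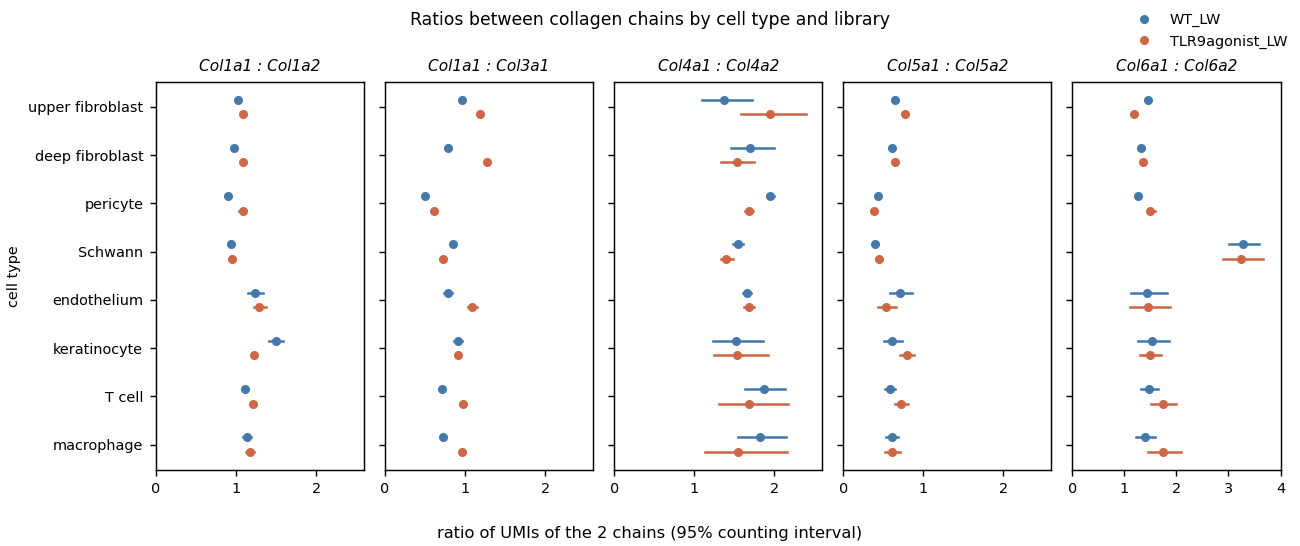
Ratio of the UMIs of 2 collagen chains (x axis, with 95% counting intervals) for 5 pairs in 6 cell types and in T cells and macrophages (y axis), with WT_LW in blue and TLR9agonist_LW in orange. The Col6a1 to Col6a2 ratio of Schwann cells (3.28 and 3.25) lies apart from the other types, and the Col1a1 to Col3a1 ratio is higher in TLR9agonist_LW in both fibroblast types.

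The multiplexins followed the network collagens. Col18a1, whose end is the source of endostatin, stood at 1392 and 865 CPM in pericytes, 1151 and 812 in Schwann cells, 927 and 547 in endothelium, and 126 in both fibroblast types of WT_LW. Col15a1, the related collagen of vessel and nerve basement membranes, was highest in endothelium, at 766 and 591, with 291 and 215 in Schwann cells and 240 and 113 in pericytes. In pericytes and Schwann cells both were lower in TLR9agonist_LW, also relative to the median gene, whereas Col15a1 in endothelium was lower by CPM but at 0.09 relative to the median gene.

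The collagens of the dermal-epidermal junction had different sources. Col17a1, a transmembrane collagen of hemidesmosomes, was found in keratinocytes, at 350 CPM (337 to 363) in WT_LW and 175 (170 to 181) in TLR9agonist_LW, with at most 7.09 in any other of the 6 types. Col7a1, the chain of anchoring fibrils, was at 101 and 47.1 in keratinocytes and stood far higher in upper fibroblasts of WT_LW, at 1036 (1002 to 1070). Upper fibroblasts of TLR9agonist_LW had 318 (307 to 329). Pericytes, at 118 and 50.6, had slightly more than keratinocytes in WT_LW, whereas in TLR9agonist_LW the intervals overlapped (42.8 to 59.5 and 44.4 to 49.8). Col4a5, a network chain of epithelial basement membranes, was low and highest in keratinocytes, at 9.76 (7.73 to 12.2) and 2.31 (1.76 to 2.99), although in TLR9agonist_LW deep fibroblasts, at 2.12 (1.1 to 3.71), did not differ from them beyond counting error. Keratinocyte levels are relative to all RNA of cells rich in keratin transcripts, and the share of basal cells in the gate was not measured.

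The share of upper fibroblasts with a Col7a1 UMI was also lower in TLR9agonist_LW. After thinning to 3000 UMIs, 79.7% of upper fibroblasts of WT_LW (73.3 to 85.1) and 50.7% of those of TLR9agonist_LW (47.2 to 54.2) held a Col7a1 UMI, against 4.93% and 2.76% of T cells. Without thinning the shares were 98.5% and 81.5%, with median depths of 16764 and 11635 UMIs per upper fibroblast. Acta2, a contractile gene, was lower alongside Col7a1 in these cells, at 176 CPM in WT_LW and 31.3 in TLR9agonist_LW. Of the other contractile markers Tagln was at 554 and 389, Cnn1 at 8.1 and 1.9, and Postn, a matrix protein listed with them, at 8505 and 7104. The part of contractile cells in the Col7a1 difference was not tested.

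The other transmembrane collagens were measured at low levels. Col13a1 was found in endothelium, at 40.5 and 33.0 CPM, with at most 1.45 in the others. Col25a1 was higher in upper fibroblasts, at 86.7 and 66.6, than in deep fibroblasts, at 1.89 and 4.42. It was not confined to upper fibroblasts. Those of neither list held 144 and 401 Col25a1 UMIs, at larger summed depths, against 300 and 665 in upper fibroblasts. Col23a1 was spread over several types, at 20.8 and 4.25 in deep fibroblasts, 12.4 and 4.41 in upper fibroblasts and 12.4 and 8.37 in keratinocytes.

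Type VIII collagen, a short-chain network collagen of vessels and of tissue under remodelling, differed between the libraries in opposite directions in different cell types. In deep fibroblasts Col8a1 stood at 344 CPM (325 to 363) in WT_LW and at 1122 (1095 to 1150) in TLR9agonist_LW, 3.27-fold higher. In endothelium it stood at 70.3 (62.8 to 78.5) and 22.5 (17.6 to 28.3), 3.13-fold lower. Schwann cells had 128 and 67.8, pericytes 116 and 140. T cells had 5.45 and 11.8, so the background differed in the direction of the fibroblasts and against that of the endothelium.

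In thinned cells, 42.2% of deep fibroblasts of WT_LW (34.9 to 49.8) and 64.4% of those of TLR9agonist_LW (58.9 to 69.6) held a Col8a1 UMI, with 1.73% and 3.32% of T cells. Without thinning the deep fibroblast shares were 69.4% and 84.3%, at median depths of 19929 and 16845 UMIs. In endothelium 13.8% (10.8 to 17.3) and 3.68% (1.85 to 6.49) of thinned cells held one, and the second share lay close to that of T cells. The unthinned endothelial shares were 17.9% and 10.9%, at median depths of 6485 and 8354 UMIs. Upper fibroblasts had 122 and 200 CPM, but 25.5% and 18.4% of their thinned cells were positive, and with cell types taken from clusters the log2 ratio was -0.87 in place of 0.72, so no direction is given for them. Col8a2, the partner chain, was at 25.7 and 44.9 in deep fibroblasts and 2.6 and 7.51 in upper fibroblasts.

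Several markers of the deep gate also differed between the libraries. Clec3b was at 800 CPM (WT_LW) and 352 (TLR9agonist_LW) in deep fibroblasts, Pi16 at 229 and 92.5, Scara5 at 66.8 and 13.6, and Angptl1 at 601 and 300, whereas Cilp (473 and 498) and Gpx3 (670 and 692) were nearly level. Gpx3 was as high in upper fibroblasts, at 644 and 713, so it did not separate the 2 types. Grem1, a marker of the upper list, was at 188 and 43.3. The gate therefore held cells of a different marker make-up in the 2 libraries, and the part of this in the deep fibroblast ratios was not tested.

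The comparison of the libraries was then made over all members, type by type. It asks which collagens differed after TLR9 activation, and it rests on 1 library per group. A gene was counted in a type when it had at least 50 UMIs over both libraries, and set apart when its levels differed by at least 2-fold. The median gene of a type was itself lower in TLR9agonist_LW, by a log2 ratio from -0.175 in Schwann cells to -0.493 in keratinocytes, so values relative to the median gene are also given where they change a count. The summed level of all collagens had a log2 ratio of -0.1 in upper and 0.21 in deep fibroblasts, -0.63 in pericytes, -0.35 in Schwann cells, -0.09 in endothelium and -0.27 in keratinocytes. Relative to the median gene the sums in upper fibroblasts (0.11), endothelium (0.37) and keratinocytes (0.22) had the other sign. The T cell level was also subtracted gene by gene, with members below it contributing nothing to the sum. The log2 ratios of these sums were -0.39 in endothelium and -1.1 in keratinocytes, whose collagen UMIs were 71.9% fibrillar in TLR9agonist_LW. Over all members the keratinocyte level, 1848 CPM in WT_LW and 1533 in TLR9agonist_LW, lay below that of T cells (2038 and 3245). No direction is therefore given for the sum in these types.

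In upper fibroblasts most members were lower. Of 25 members counted, 7 were at least 2-fold lower in TLR9agonist_LW (Col7a1, Col11a1, Col18a1, Col23a1, Col24a1, Col4a2 and Col5a3), where 3.71% of all 10078 genes counted in these cells were. One member, Col8a2, was at least 2-fold higher, from 9 and 75 UMIs, where 4.06% of all genes were. The median log2 ratio was -0.61 over the members and -0.208 over all genes, and 20 of the 25 members lay below 0, as did 67.8% of all genes. Col11a1 had the lowest ratio, at -2.05 (-2.54 to -1.58), followed by Col7a1 at -1.71 (-1.78 to -1.64) and Col18a1 at -1.65 (-1.85 to -1.45). The members with most UMIs lay closer to 0, with 0.1 for Col1a1, 0.03 for Col1a2, -0.2 for Col3a1, -0.29 for Col12a1, -0.26 for Col5a1 and -0.51 for Col5a2. Col17a1 had a log2 ratio of 0.13 (-0.83 to 1.21) at the level of the background. Of the 7 lower members Col4a2 was at background.

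In deep fibroblasts the members differed in both directions. Of 24 counted, 3 were at least 2-fold lower in TLR9agonist_LW, Col6a6 at a log2 ratio of -2.48 (-3.05 to -1.95), Col23a1 at -2.29 (-3.02 to -1.62) and Col5a3 at -1.75 (-1.84 to -1.67), against 8.51% of all 9284 genes counted. Col8a1 alone was at least 2-fold higher, at 1.71 (1.62 to 1.8), against 4.45% of all genes. The median was -0.326 over the members and -0.326 over all genes. Col8a2 (0.81, 0.46 to 1.16) and Col24a1 (0.83, 0.19 to 1.51) came next on the higher side. Relative to the median gene both of these also passed 2-fold, which gave 3 members higher and 3 lower, where 7.14% and 3.16% of all genes were on that scale. The major fibre chains Col1a1 (0.57) and Col1a2 (0.43) were higher, and Col3a1 (-0.13), Col5a2 (-0.33), Col6a1 (-0.32) and Col6a3 (-0.73) were lower. Set against the median gene, Col3a1 had the other sign (0.2), Col5a2 and Col6a1 were level with it, and Col6a3 was at -0.4.

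In pericytes nearly all members were lower, and so was the median gene. Of 21 members counted, 20 had a ratio below 0, as had 77.9% of all genes, and the median was -0.658 against -0.404 over all 9143 genes counted. At least 2-fold lower were 2 members, Col7a1 at -1.22 (-1.49 to -0.95) and Col15a1 at -1.09 (-1.27 to -0.91), where 11.3% of all genes were. No member was 2-fold higher, where 3.2% of genes were, and relative to the median gene none was 2-fold lower either, where 2.92% of genes were. With the T cell level subtracted, 5 members were 2-fold lower. No share of all genes is given on that scale, so this number describes the members alone. Among the members with most UMIs, Col1a1 (-0.39) and Col6a1 (-0.37) lay close to the shift of the median gene, and Col4a1 (-0.74), Col3a1 (-0.67), Col1a2 (-0.66) and Col4a2 (-0.53) lay below it. The pericyte values of Col1a1, Col1a2 and Col3a1 include background that differed the other way, with log2 ratios of 1.09, 0.97 and 0.63 in T cells. Its part in the pericyte ratios was not tested. Col5a3 was at -0.94, and Col8a1 (0.27), Col16a1 (-0.07) and Col6a4 (-0.35) were at the upper end.

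Schwann cells had no member set apart in either direction among 24 counted. Of all 9956 genes counted, 2.28% were 2-fold higher and 3.13% 2-fold lower. Col20a1 (0.83), Col4a4 (0.73, 0.08 to 1.37) and Col16a1 (0.17) had the highest ratios, and Col8a1 (-0.92, -1.16 to -0.69), Col11a1 (-0.87, -1.02 to -0.72) and Col5a2 (-0.76, -0.83 to -0.69) the lowest. Relative to the median gene Col20a1 reached 2-fold, where 3.13% of all genes were 2-fold higher. With the level of T cells of the same library subtracted, 2 members were 2-fold lower, a number with no share of all genes on that scale beside it.

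In endothelium 6 of the 20 members counted were above background, Col4a1, Col4a2, Col15a1, Col18a1, Col13a1 and Col8a1. All 6 were lower in TLR9agonist_LW, with log2 ratios of -0.33, -0.35, -0.37, -0.76, -0.3 and -1.65, and Col8a1 passed 2-fold. Of all 1813 endothelial genes above background 1432 were lower too, with a median of -0.53, and relative to the median gene Col4a1 (0.14), Col4a2 (0.12), Col15a1 (0.09) and Col13a1 (0.17) had the other sign. Col8a1 was above background through WT_LW, since its level of 22.5 in TLR9agonist_LW was under 2 times the T cell level of 11.8. Counting all 20, 3 were 2-fold lower (Col8a1, Col5a3 at -1.73 and Col27a1 at -1.45), where 16.9% of all 9190 genes counted were. On the higher side were 2, Col1a1 at 1.13 and Col1a2 at 1.06, where 3.35% of genes were. Both were at background, and so were Col3a1 (0.66) and Col12a1 (0.89). In T cells Col1a1 had a ratio of 1.09 and Col1a2 of 0.97. After subtraction of the T cell level no endothelial member was 2-fold higher, and no share of all genes is given on that scale. Relative to the median gene 4 members were 2-fold higher (Col1a1, Col1a2, Col3a1 and Col12a1) and 2 were 2-fold lower (Col5a3 and Col8a1), where 7.11% and 4.74% of all genes were on that scale.

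Keratinocytes had 9 of 22 members counted 2-fold lower in TLR9agonist_LW, where 18.4% of all 10906 genes counted were, and none 2-fold higher, where 3.04% were. Of the 9, Col4a5 (-2.08, -2.59 to -1.57), Col7a1 (-1.1, -1.23 to -0.97) and Col18a1 (-1.05, -1.18 to -0.91) were above background, although in T cells Col18a1 (-1.46) and Col7a1 (-0.52) were lower too. Col17a1 (-1.0, -1.06 to -0.93) was 1.99-fold lower and Col23a1 was at -0.56. The other 6, Col15a1, Col27a1, Col4a1, Col4a2 (-1.8), Col5a3 (-2.12) and Col6a3, were at background, and in T cells the same 6 had log2 ratios from -1.62 to -0.73. Col14a1 (0.37), Col1a2 (0.36), Col3a1 (0.05) and Col1a1 (0.05), at the higher end, were at background too. Relative to the median gene, where 5.15% of all genes were 2-fold lower, 5 members were, Col4a5 and, at background, Col5a3, Col4a1, Col4a2 and Col27a1, so Col7a1 (-0.61) and Col18a1 (-0.55) were no longer among them. After subtraction of the T cell level 4 members were 2-fold lower, again with no share of all genes on that scale.

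**Figure D4:**
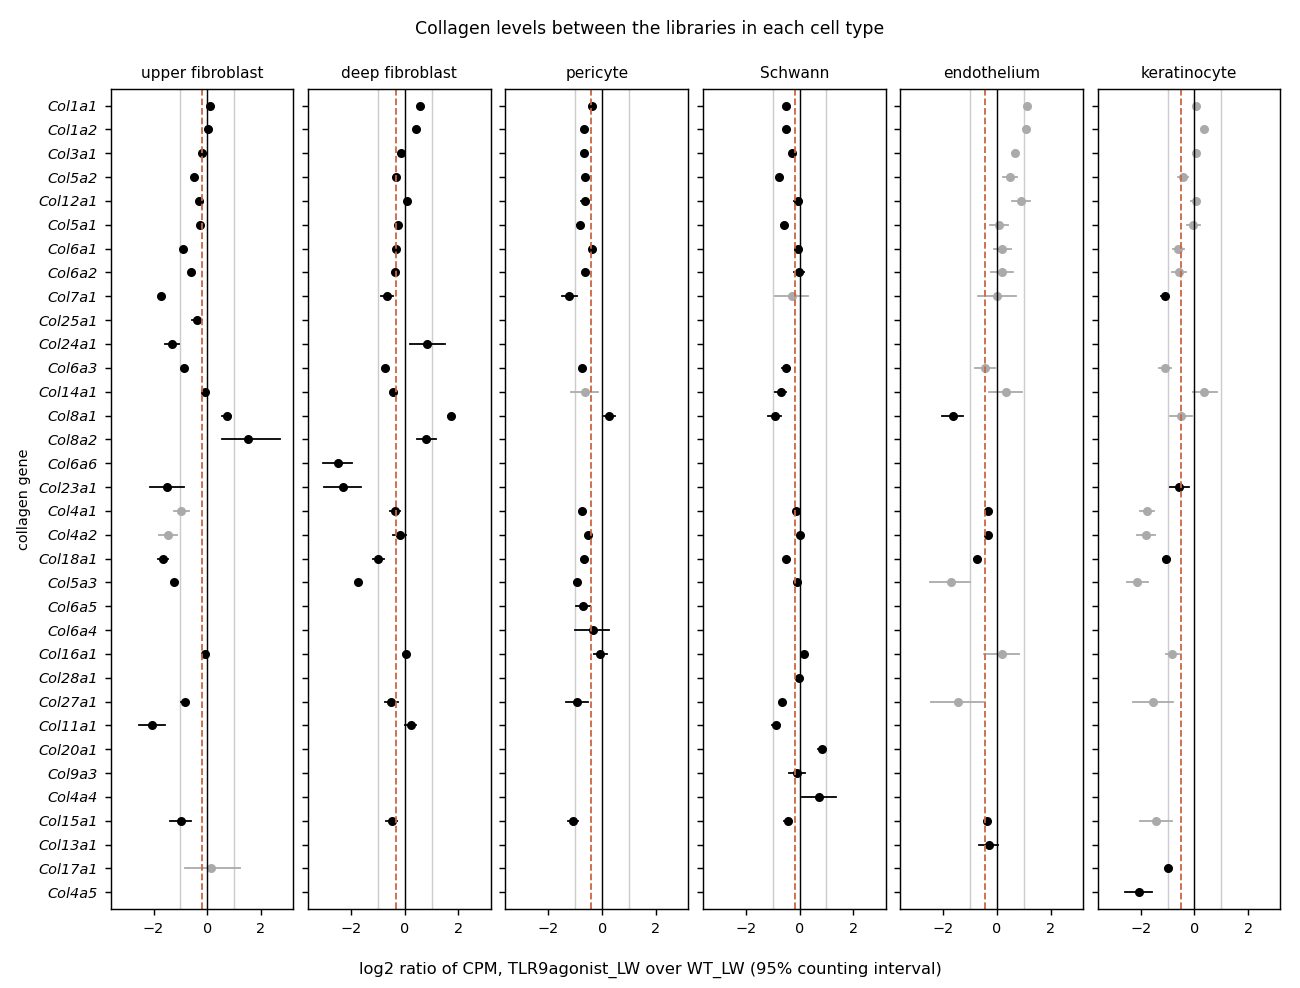
Log2 ratio of CPM of TLR9agonist_LW over WT_LW (x axis) for each collagen gene with at least 50 UMIs in a type (y axis), with 95% counting intervals, in 6 cell types. Black points are above background and grey points are not, the dashed line is the median of all genes of the type and light lines mark 2-fold, and Col8a1 lies at 1.71 in deep fibroblasts and at -1.65 in endothelium.

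Upper and deep fibroblasts were also compared within each library, where both types share preparation and background. Of 24 members counted, 4 were at least 2-fold higher in upper fibroblasts in both libraries (Col25a1, Col7a1, Col24a1 and Col27a1), where 2.43% of all 8795 genes counted were. On the other side 7 were at least 2-fold lower in upper fibroblasts in both (Col8a2, Col5a3, Col15a1, Col11a1, Col14a1, Col8a1 and Col4a1), where 2.83% of genes were. The fibroblast types were separated by other genes than collagens, but those genes come from the same cells, so these counts are descriptions.

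The log2 ratio of upper over deep fibroblasts for Col25a1 was 5.52 (4.46 to 6.85) in WT_LW and 3.91 (3.34 to 4.55) in TLR9agonist_LW. Col7a1 followed with 3.57 (3.41 to 3.74) and 2.52 (2.36 to 2.7), and Col24a1 with 3.24 (2.67 to 3.86) and 1.1 (0.73 to 1.49). Col7a1 and Col24a1 differed less between the fibroblast types in TLR9agonist_LW than in WT_LW, beyond counting error. For Col25a1, with 7 UMIs in deep fibroblasts of WT_LW, the intervals of the 2 libraries overlapped. Col11a1 went the other way, with -1.67 (-2.03 to -1.33) and -3.95 (-4.35 to -3.58), and so did Col8a1, with -1.49 (-1.66 to -1.33) and -2.49 (-2.56 to -2.41). Col14a1 (-1.66 and -1.33) and Col5a3 (-1.98 and -1.46) differed somewhat less in TLR9agonist_LW. The common fibre chains were nearly level between the types, and Col1a1 had 0.38 (0.37 to 0.39) in WT_LW and -0.08 (-0.09 to -0.08) in TLR9agonist_LW. With types taken from clusters, 2 members in place of 4 were higher in upper fibroblasts in both libraries, and no share of all genes is given for clusters.

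**Figure D5:**
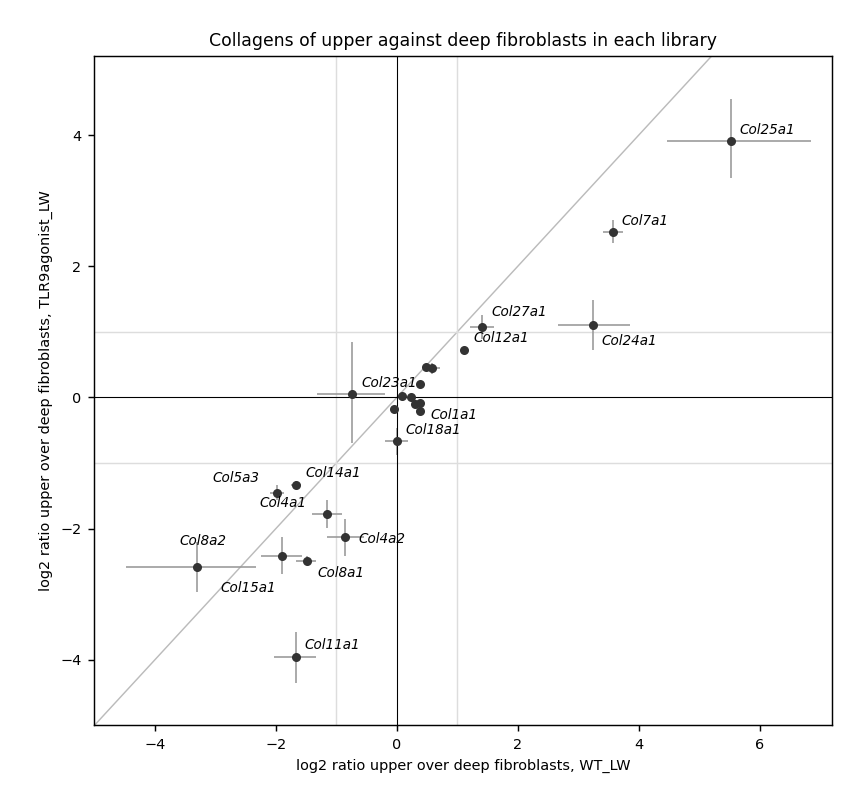
Log2 ratio of upper over deep fibroblasts in WT_LW (x axis) and in TLR9agonist_LW (y axis) for 24 collagen genes, with 95% counting intervals, light lines at 2-fold and a diagonal where both libraries are equal. Col25a1, Col7a1 and Col24a1 lie to the upper right below the diagonal, and Col11a1 (-1.67 and -3.95) lies far below it.

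Collagens differed in how closely their levels followed each other over the 12 combinations of 6 types and 2 libraries. As a description, with points that share libraries and background, the correlation of log levels was 1.0 for Col1a1 with Col1a2 and for Col4a1 with Col4a2, 0.99 for Col6a2 with Col6a3, 0.98 for Col6a4 with Col6a5 and 0.97 for Col20a1 with Col28a1. The multiplexins were most like the network collagens, at 0.96 for Col18a1 with Col4a2 and 0.91 for Col15a1 with Col4a2. Col24a1 and Col25a1 were each other's closest match, at 0.9. Col17a1 and Col13a1 had no close match, with highest values of 0.59 and 0.57. Col5a3 was most like Col6a1, at 0.88, and Col5a2, at 0.86.

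Genes that process collagen were counted beside the members, from 7 lists with 54 genes. In upper fibroblasts 44 of them were counted, of which 1 was 2-fold higher in TLR9agonist_LW and 2 were 2-fold lower, against 4.06% and 3.71% of all genes, and the median log2 ratio was -0.26. None of the 9 proline hydroxylation genes, 5 lysine hydroxylation and glycosylation genes, 5 chaperone and export genes, 6 crosslinking genes and 6 collagen receptors counted passed 2-fold there. Serpinh1, the chaperone that binds the collagen triple helix, stood at 3134 and 2943 CPM. Adamts14, a protease that trims procollagen, was lower at -1.08 (-1.34 to -0.81). Among 9 basement membrane partners Nid2, a linker of the network, was lower at -1.57 (-1.77 to -1.36), and the laminin chain Lama5 was higher at 2.1 (1.18 to 3.2) from levels of 2.89 and 12.4, with 2.94 and 1.41 in T cells.

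In deep fibroblasts 43 were counted, of which 2 were 2-fold higher and 4 were 2-fold lower, against 4.45% and 8.51% of all genes, with a median of -0.47. Loxl2, an enzyme that crosslinks collagen, stood at 854 and 298 CPM (-1.52, -1.61 to -1.43), while Lox, the principal enzyme of that family, stood at 746 and 1063. Loxl4 was higher at 2.14 (0.98 to 3.53) from levels of 1.89 and 8.31. Plod2, which hydroxylates the lysines used in crosslinks, stood at 123 and 56.3 (-1.13), and Adamts14 was at -1.69. Among the receptors Ddr1 was lower (-1.35), and Itga1, the integrin chain for network collagens, was at 1.0 (0.4 to 1.65), with levels of 8.11 and 16.3 against 18.3 and 6.57 in T cells.

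In pericytes, where 11.3% of all genes were 2-fold lower, 4 of 44 companions were, P3h4 (-1.35), the export gene Mia3 (-1.05), Nid2 (-1.24) and the laminin chain Lama4 (-1.02). Pericyte Mia3, at 124 and 59.9 CPM, was under 2 times its T cell levels of 70.9 and 46.3. In Schwann cells 3 of 40 were lower, against 3.13% of all genes, Loxl2 (-1.27), Adamts2 (-1.01) and Loxl3 (-1.0). Endothelium had 4 of 39 lower, against 16.9% of all its genes, Itga2 (-1.65), P3h1 (-1.08), Mia3 (-1.05) and Bmp1 (-1.05). Endothelial Mia3, at 88.1 and 42.5 CPM, was under 2 times its T cell levels too, and so was P3h1 in TLR9agonist_LW (9.24 against 4.75). Keratinocytes had 13 of 43 lower and 1 higher, against 18.4% and 3.04% of all genes, with 5 of 8 basement membrane partners lower (Lama4 at -2.16, Lamb1 at -1.79, Lama5 at -1.39, Agrn at -1.2 and Nid1 at -1.05). Of these, Lama4, Lamb1 and Nid1 had levels near or below those of T cells. Among the other lower genes, Plod1, Pxdn and Itga1 were below T cells in both libraries. Plod3 was under 2 times the T cell level in both, and Crtap, Bmp1 and Adamts14 in TLR9agonist_LW. Ddr1, Lama5 and Agrn were above 2 times that level in both. The higher gene, Itga11, was at 0.618 and 2.35 CPM, below its T cell levels of 2.66 and 5.56.

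The 10 members under 50 UMIs in each of the 6 types were Col9a1, Col19a1, Col4a3, Col4a6, Col9a2, Col26a1, Col10a1, Col22a1, Col2a1 and Col11a2. Col4a6, which lies next to Col4a5, had most of its UMIs in keratinocytes, at 3.58 and 0.518 CPM, and Col22a1 had most in pericytes, at 4.54 and 7.58. Col9a1, the type IX chain that pairs with Col9a3, was at 2.4 and 2.35 in Schwann cells and had no UMI in the other 5 types, which allows up to 1.03 CPM in the shallowest of them, pericytes of TLR9agonist_LW. No UMI of Col19a1 was counted in 5 of the types, and 1 was counted in deep fibroblasts of TLR9agonist_LW, where 3 UMIs would correspond to 0.531 CPM. Col2a1, the main collagen of cartilage, had 3 UMIs in Schwann cells. Col9a2 stayed under the minimum in the 6 types but had 8 and 100 UMIs in fibroblasts of neither list, 1.38 and 7.6 CPM. Col26a1 was at 5.78 and 0.501 in upper fibroblasts and at 0.554 and 6.04 in Schwann cells, Col11a2 was at 4.25 and 3.35 in Schwann cells, and Col10a1 and Col4a3 had at most 5 and 2 UMIs in any type of a library.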

How the data were processed

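Single-cell 3′ RNA of the wound centre was measured in 2 libraries, WT_LW and TLR9agonist_LW. The deposited values are whole UMI counts that were not normalized. Per the file headers they come from Cell Ranger 4.0.0, and the submitters' notes also name fastp, Seurat and build mm9. Members, lists and the split of fibroblasts were chosen with earlier results of these data known.

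Cells with at least 500 UMIs, 300 genes and at most 15% mitochondrial UMIs were kept. Scrublet's automatic threshold (scanpy 1.11.5) marked 0 cells in both libraries, so it had not worked, and the highest scores were removed instead at 0.8% per 1000 barcodes, 1167 cells (10.2%) of WT_LW and 1413 (10.7%) of TLR9agonist_LW. Gates required 4 of 6 fibroblast, 4 of 7 pericyte, 4 of 7 Schwann, 4 of 9 endothelial, 8 of 11 keratinocyte, 4 of 6 T cell or 4 of 7 macrophage markers. Fibroblasts were upper or deep with at least 3 markers of that list and 2 more than of the other. Cells in several gates (474 and 646) were removed, and 2921 and 3762 cells passed no gate. Many cells lay near a cut: 247 fibroblasts of WT_LW and 746 of TLR9agonist_LW had exactly 4 markers, and 634 and 1353 cells had 1 fewer. The median T cell carried 2 of 11 keratinocyte markers in WT_LW and 5 in TLR9agonist_LW.

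Levels carry exact Poisson intervals, ratios the exact interval given the total, shares the Clopper-Pearson interval (scipy 1.17.1). No test was run with 1 library per group. Named genes were the 6 members with most UMIs in a type and the 3 highest and 3 lowest ratios. A self-test on simulated counts was run first. Settings numbered 10 planned and 1 added after seeing the data.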

Additional observations from a re-analysis of the deposited data

Results flagged for a closer look

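Col8a1 moved in opposite directions in 2 cell types of the same libraries. Its log2 ratio of TLR9agonist_LW over WT_LW was 1.71 in deep fibroblasts and -1.65 in endothelium, and each of these groups is 1 summed library, so the difference between the types was not tested. The signs held in each setting in which they were recomputed, with 1.65 to 2.03 in deep fibroblasts and -2.6 to -1.05 in endothelium. In TLR9agonist_LW the endothelial level of 22.5 CPM was under 2 times the T cell level of 11.8.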

How the results depend on the processing

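No paired analysis was possible because each group is 1 library. Of the summed levels and counts recomputed, 194 stayed close to the value reported, 68 differed more, and 4 summed ratios had the other sign. Values are log2 ratios of summed collagens and numbers of members 2-fold apart, and the cause of each difference was not tested. Shares of all genes are given above for CPM and relative to the median gene only. Counts at the other settings therefore describe the members alone.

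Relative to the median gene the summed ratio was 0.11 in upper fibroblasts, 0.37 in endothelium and 0.22 in keratinocytes, each with the other sign, and 0.53 in deep fibroblasts, -0.23 in pericytes and -0.18 in Schwann cells. Members higher then numbered 3 in deep fibroblasts, 1 in Schwann cells and 4 in endothelium, and members lower 0 in pericytes and 5 in keratinocytes. With types from clusters the sum in endothelium was 0.12, again with the other sign, -0.1 in upper and 0.25 in deep fibroblasts, -0.57 in pericytes, -0.31 in Schwann cells and -0.61 in keratinocytes. Members higher numbered 5 in endothelium and 0 in upper fibroblasts, members lower 1 in endothelium and 1 in pericytes, and 2 were higher in upper than in deep fibroblasts in both libraries.

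When the T cell level was subtracted gene by gene, members below it contributed nothing to a sum. The sums were then -0.12 (upper), 0.19 (deep), -0.81 (pericyte), -0.54 (Schwann), -0.39 (endothelium) and -1.1 (keratinocyte). On that scale 5 members were lower in pericytes, 2 in Schwann cells and 4 in keratinocytes, and 0 were higher in endothelium. With 1 more marker required the sums were -0.04, 0.17, -0.58, -0.38, -0.01 and -0.44 in the same order, with 2 members higher in upper fibroblasts and 2 lower in Schwann cells. With equal weight per cell they were -0.15, 0.2, -0.61, -0.32, -0.16 and -0.82, with 0 higher in endothelium. With doublets kept, sums were -0.1 in upper fibroblasts and -0.18 in keratinocytes, with 0 higher in endothelium. The stricter cell filter gave -0.09 and -0.32 in these types. Scaled to non-collagen UMIs the sums were -0.11 in upper and 0.23 in deep fibroblasts, and 1 member was highest in keratinocytes.

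With the keratinocyte gate left out of the removal of cells in several gates, an alternative chosen after seeing the data, sums were -0.15 (upper), 0.24 (deep), -0.65 (pericyte) and -0.4 (Schwann), with 5 members lower in deep fibroblasts. A minimum of 10 UMIs gave 3 members higher in upper and 3 in deep fibroblasts, 1 in pericytes, 2 in Schwann cells and 1 in keratinocytes, and 4 lower in pericytes, 1 in Schwann cells and 5 in endothelium. This minimum also admits other genes with few UMIs, and the share of all genes 2-fold apart is not given for it. A minimum of 200 UMIs gave 0 higher in upper fibroblasts, 1 lower in deep fibroblasts, 1 lower in endothelium and 1 member highest in keratinocytes. Depth limits the members near 50 UMIs, such as Col8a2 in upper fibroblasts.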
